A study of Mus musculus with 71 samples.

Results

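Kinesins are motor proteins that walk along microtubules with the energy of ATP, and the family splits into motors that carry cargo and motors that build and shorten the spindle. The genes described here are all rows of the deposited expression table whose symbol begins with Kif and a digit, 33 of the 15140 genes used. Of these, 31 encode members of the motor family, called motors below although Kif26a is an atypical one without motor activity. The other two are Kif1bp, which encodes a protein that binds kinesins and is not itself a motor, and Kif16bos, an RNA transcribed opposite to Kif16b. Of 39 protein-coding genes with such symbols in the GENCODE annotation of GRCm38, 32 were in the table, and Kif4, Kif7, Kif9, Kif15, Kif22, Kif23 and Kif28 were not analysed here.

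Most kinesins move toward the plus end of a microtubule, and members of the Kif2 and Kif18 groups also shorten microtubule ends. In a mitotic cell Kif11 pushes the spindle poles apart, Kif18a aligns chromosomes, and Kif14, Kif20a and Kif20b act in cytokinesis. An oocyte builds its meiotic spindle without centrosomes and stores many transcripts for maturation and the early embryo, while its growth depends on transport within a large cytoplasm.

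RNA was measured in 33 groups of libraries from mouse cells of C57BL/6 x 129 background, 2 libraries a group and 3 for each kind of GV oocyte. The in vitro oocytes carried the Blimp1-Venus and Stella-CFP reporters in all groups, wild type included. They came from primordial germ cell-like cells made from embryonic stem cells and were cultured beside somatic cells from female gonads at embryonic day 12.5. Cells positive for the SC reporter were sorted at day 11 or day 13 of in vitro differentiation. Beside wild type at both days there were 4 knockouts at day 11 (Figla, Lhx8, Stat3, Sub1) and 15 at day 13 (Ccnk, Dynll1, Ell3, Foxr1, Hes6, Kdm1b, Mef2b, Nobox, Noto, Sfr1, Sohlh1, Tbpl2, Tcf25, Thap7, Ybx3). Directly induced oocyte-like cells (DIOLs) came from the stem cell line MGA8, aggregated with stem cell factor, the stabilising ligand Shield1 and the kinase inhibitor Y-27632. Libraries labelled DIOLs.S were taken at days 1, 3, 5, 7 and 14, and those labelled DIOLs at days 5, 10, 15 and 25. The labels do not say what the S stands for, which genes were introduced, or whether libraries of a group came from separate cultures. Matured DIOLs (MII DIOL) were aggregated with gonadal somatic cells, grown in follicles and matured in vitro, so they differ from the other DIOLs in culture as well as in stage. Oocytes at the germinal vesicle (GV) stage came from animals with both reporters and were labelled comp or incomp. Their column names carry 2w for incomp and 3w for comp oocytes, which may be the age of the animals in weeks.

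Values are in TPM (a level scaled by transcript length and to a fixed total per library), and the table gives no read counts, so the depth behind each value is unknown. The genes in the table summed to 0.521 to 0.708 of the full TPM total in the 68 libraries used. Of 19 knockout targets, 12 were in the table and 11 of these were lower in both knockout libraries than in both wild-type libraries. Ccnk was at 163 and 178 TPM in the libraries labelled Ccnk knockout and at 164 and 172 TPM in wild type. Sub1 in the libraries labelled Sub1 knockout stood at 71.1% of its wild-type level and above its mean in another knockout (239 TPM). Ell3, Kdm1b, Lhx8 and Tbpl2 were also above their mean in another knockout, at 34.3%, 19.6%, 13.8% and 30.8% of wild type. The Ccnk and Sub1 pairs are called by their labels below because these targets were the least reduced. The other 7 targets were not in the table and could not be checked. The 2 Sohlh1 knockout libraries correlated at r = 0.873 over genes, and every other pair of libraries in a group at 0.967 or more. The summed TPM of 10 oocyte markers lay between 1440 and 67360 over the knockout libraries. It stood at 9036 and 9225 in the wild type of day 11 and at 59190 and 60640 in that of day 13.

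Kif17 and Kif14 fell, and Kif18a and Kif20b rose, in many knockouts. Sequences listed as promoters of these 4 kinesin genes, on which the results turn most, are therefore shown here. They are RefSeq sequences of GRCm38.p6, from 250 bases before to 50 bases after the start site, with matches to CCAAT, to TTTGAA or to TGACGTCA on either strand in capitals. TTTGAA is the core letters of a site known from cell cycle genes, and TGACGTCA those of a cyclic AMP response element. TGACGTCA was added after the sequences had been seen. Kif17 lies at chr4:138262001-138262300, Kif14 at chr1:136467598-136467897, Kif18a at chr2:109280488-109280787 and Kif20b at chr19:34922108-34922407, all on the plus strand.
Kif17: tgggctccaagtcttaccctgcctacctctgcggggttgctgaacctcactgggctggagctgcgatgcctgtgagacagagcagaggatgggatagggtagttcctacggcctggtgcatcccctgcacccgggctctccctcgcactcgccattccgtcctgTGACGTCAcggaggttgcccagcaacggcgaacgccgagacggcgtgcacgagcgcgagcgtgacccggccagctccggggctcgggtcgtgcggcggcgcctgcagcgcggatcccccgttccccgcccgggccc
Kif14: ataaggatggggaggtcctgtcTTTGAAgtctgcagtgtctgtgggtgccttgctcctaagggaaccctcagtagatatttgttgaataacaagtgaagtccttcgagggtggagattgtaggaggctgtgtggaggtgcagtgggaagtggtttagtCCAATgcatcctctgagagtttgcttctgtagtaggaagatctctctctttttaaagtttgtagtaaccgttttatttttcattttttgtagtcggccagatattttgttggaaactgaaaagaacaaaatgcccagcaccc
Kif18a: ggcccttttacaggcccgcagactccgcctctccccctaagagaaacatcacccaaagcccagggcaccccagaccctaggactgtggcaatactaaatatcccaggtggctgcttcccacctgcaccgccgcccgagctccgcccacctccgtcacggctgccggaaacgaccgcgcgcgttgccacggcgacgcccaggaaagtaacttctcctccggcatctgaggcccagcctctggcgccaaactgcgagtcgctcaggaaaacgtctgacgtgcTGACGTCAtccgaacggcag
Kif20b: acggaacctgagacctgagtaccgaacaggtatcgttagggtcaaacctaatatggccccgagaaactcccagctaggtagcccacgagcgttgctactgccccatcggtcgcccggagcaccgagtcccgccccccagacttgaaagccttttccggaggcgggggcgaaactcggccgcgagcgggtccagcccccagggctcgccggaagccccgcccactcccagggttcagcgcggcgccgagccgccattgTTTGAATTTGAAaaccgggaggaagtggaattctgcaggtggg

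Starts here are those of the RefSeq promoters, and the GENCODE gene models can begin elsewhere. That of Kif17 begins 11816 bases and that of Kif14 1505 bases upstream, and the start of the nearest GENCODE coding transcript is 19 bases away for Kif17 and 87 bases for Kif14. For Kif18a it is the same base and for Kif20b it is 3 bases away. TGACGTCA began 86 bases before the RefSeq start of Kif17 and 31 bases after that of Kif18a. In Kif14 the first base of CCAAT was 92 bases and that of TTTGAA 228 bases before the start, and in Kif20b TTTGAA began 8 and 14 bases after it. Over the 25 motor genes with a RefSeq promoter, 11 held CCAAT, 8 held TTTGAA and 3 held TGACGTCA (Kif17, Kif18a and Kif5c). Among 32851 promoters of the same length these shares were 37.4%, 17.9% and 1.79%. The stretch printed for Kif17 was 69.3% G and C and that for Kif14 43.7%, against a median of 52.7% over all promoters. Both starts lie inside the GENCODE gene models. The bases just before the Kif14 start are rich in T and end in AG, as the end of an intron does. That stretch may therefore not be a promoter. Whether the printed stretches act as promoters of these genes was not tested. A match is a description of these letters and not evidence of binding.

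**Figure D1:**
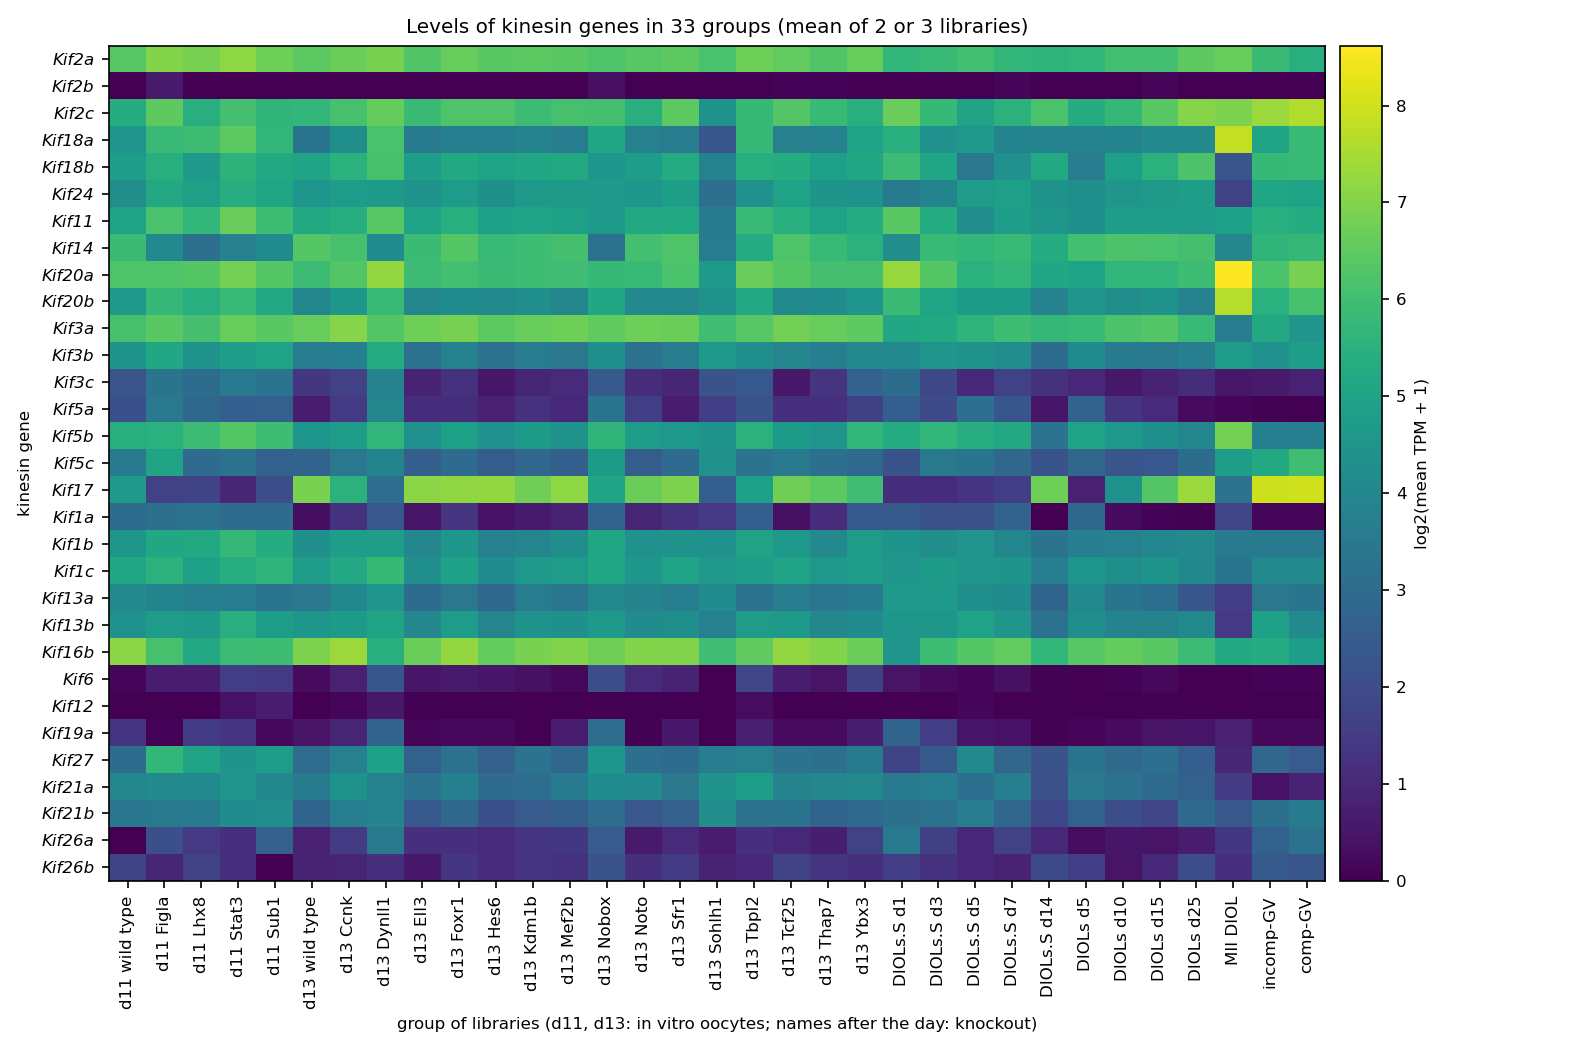
Mean TPM of each of the 31 motor genes (rows, grouped by role) in each of the 33 groups (columns), coloured as log2(mean TPM + 1). Kif17 is dark in the early DIOLs and bright in GV oocytes, and Kif20a is brightest in MII DIOL.

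The 33 genes covered a wide range of levels, and the leading motor changed with the kind of cell. Kif16b, which moves early endosomes, had the highest mean in wild-type oocytes of day 11 (139 TPM) and day 13 (124 TPM). Kif17, a transport motor of the kinesin-2 group, led in DIOLs of day 25 (160 TPM) and in both kinds of GV oocyte. Kif20a, which brings the chromosomal passenger complex to the midzone of the spindle, led in DIOLs.S of day 1 (157 TPM) and in MII DIOL (392 TPM). Among the knockouts Kif2a, a depolymerase of spindle poles, led without Figla (129 TPM), Lhx8 (115 TPM), Stat3 (142 TPM), Tbpl2 (105 TPM) and Sohlh1 (70.3 TPM) and in the libraries labelled Sub1 (103 TPM), and Kif20a led without Dynll1 (149 TPM). Together the motors summed to 507 TPM in the Sohlh1 knockout, the lowest mean, and to 1344 TPM in MII DIOL, the highest. In GV oocytes Kif17 averaged 252.5 TPM over 6 libraries and was followed by Kif2c, the depolymerase of kinetochore microtubules (178 TPM), Kif20a (93.4 TPM) and Kif1bp (72.3 TPM).

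At the other end, Kif2b and Kif12 reached 1 TPM in 1 library each of 68 and were not tested. Kif6, a cilium kinesin, reached it in 14 libraries, Kif19a, which shortens ciliary microtubules, in 15, and Kif16bos in 10. Reads of 9 members could come in part from a gene on the opposite strand, because the libraries were directional but the strand setting of the counting is not given in the sources used here. Exons of Kif20a overlapped those of Cdc23 over 29.3% of their length, and Kif2a shared 19.2% with Dimt1. For Kif3c 35.3% overlapped 1110002L01Rik and 7.94% overlapped Gm48512, and for Kif1bp 10.1% overlapped 4933428P19Rik. The other five were Kif27 (6.37%), Kif26b (6.19%), Kif5b (2.28% and 1.78%, with separate genes), Kif6 (1.03%) and Kif18a (0.112%).

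Each comparison below was fitted with limma on log2(TPM + 1) over all genes, and a gene is said to rise or fall where its Benjamini-Hochberg adjusted p was under 0.05 and its log2 change at least 1. Adding 1 TPM understates the change of genes at low level. The p-values measure the spread between these libraries only, and in sorted or pooled cells fewer cells of a type and less RNA per cell cannot be told apart. In the fit of in vitro oocytes 31 of the 33 genes were tested, 29 of them motors. In the fit of DIOLs and GV oocytes 30 were tested, 28 of them motors. Counts of kinesins below include Kif1bp and Kif16bos, which are not motors.

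Between day 11 and day 13 of wild-type culture, Kif17 rose while Kif1a and Kif5a fell. Kif17 was at 24.1 and 23.5 TPM at day 11 and at 115.5 and 118.5 TPM at day 13, with no overlap. Its log2 change was 2.25 ± 0.21 (SE, n = 2 a group; adjusted p = 2.8e-09). Kif1a, the motor of synaptic vesicle precursors in neurons, stood at 6.86 and 7.51 TPM at day 11 and at 0.07 and 0.43 TPM at day 13. That was a log2 change of -2.73 ± 0.42 (adjusted p = 8.3e-06). Kif5a, a heavy chain of conventional kinesin best known from neurons, went from 2.80 and 3.79 TPM to 0.29 and 0.94 TPM (log2 change -1.43 ± 0.45, adjusted p = 0.011). Its call was lost without replicate 1 of day 13 (adjusted p = 0.12) or replicate 2 of day 11 (adjusted p = 0.078). Kif16b did not pass the threshold, at 139 ± 1.1 and 124 ± 15.1 TPM (SD, n = 2).

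These 3 calls among 31 kinesins compare with 22% of all 12306 genes called, 5.5% higher and 16.5% lower. Without replicate 1 of day 11 there were 7. The median log2 change was -0.35 over the kinesins and -0.24 over all genes. The summed TPM of 15 granulosa and gonadal somatic markers fell from 1016 and 1068 at day 11 to 39.6 and 42.9 at day 13, and that of 10 stromal and endothelial markers from 906 and 944 to 34.6 and 36.5. None of these markers was at 0 in both day 13 libraries. The part of these cells in the fall of Kif1a and Kif5a was not tested.

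**Figure D2:**
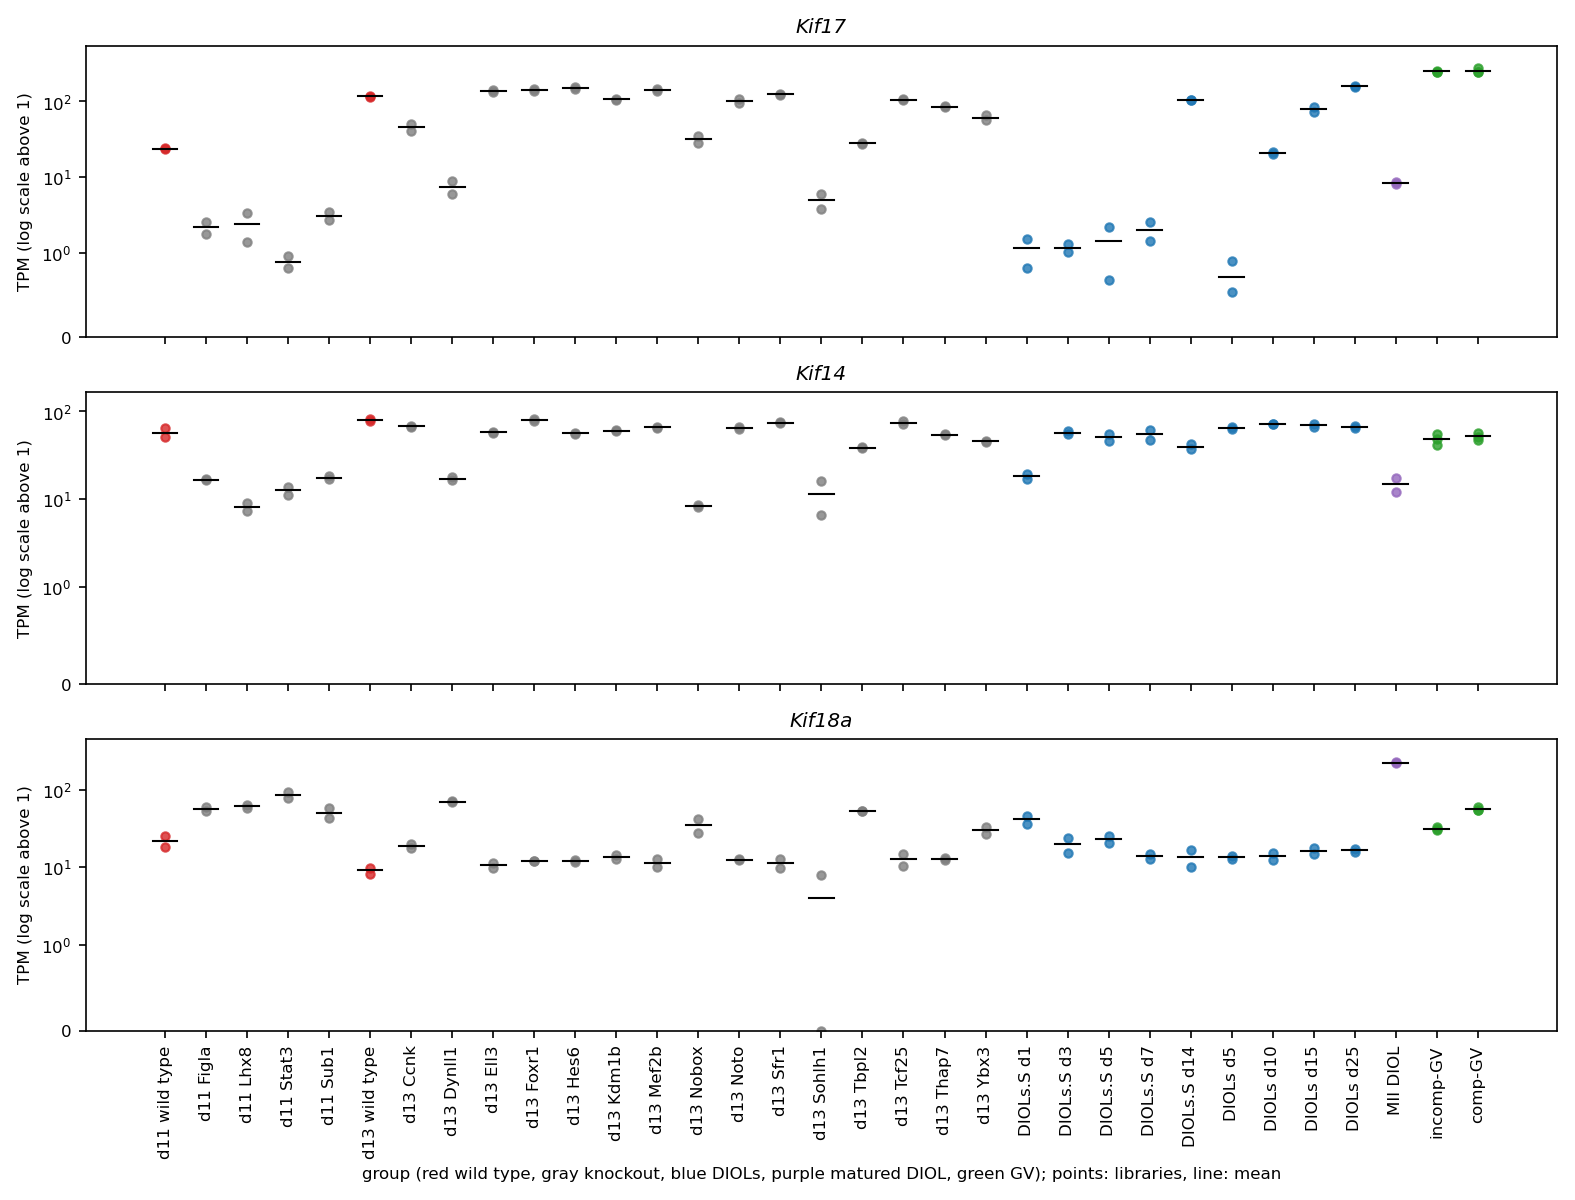
TPM of Kif17, Kif14 and Kif18a in every library (points, log scale above 1 TPM) with group means (lines), in wild type (red), knockouts (gray), DIOLs (blue), MII DIOL (purple) and GV oocytes (green). Kif17 and Kif14 lie below wild type of the same day in the knockouts of Figla, Lhx8, Stat3, Sub1, Dynll1, Nobox, Sohlh1 and Tbpl2, and Kif18a lies above it in all of these but Sohlh1.

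Over the 19 knockouts there were 96 calls of a kinesin gene, 67 higher and 29 lower, and all of them were in 10 knockouts. These are 11.4% higher and 4.92% lower of the tests of a kinesin, against 10.9% and 4.34% of the tests of all genes in the same knockouts. After rescaling by the median of ratios there were 42 higher and 35 lower. The share of all genes called was computed without rescaling only, so rescaled counts, here and below, have no such share to stand beside. Of the 29 lower calls, 22 were of Kif17, Kif14 or Kif16b. The 4 knockouts of day 11 share the wild-type libraries of that day and the 15 of day 13 share theirs, so their changes are given side by side and are not independent of each other.

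Kif17, which carries receptor vesicles in neurons and a transcriptional coactivator in male germ cells, fell in 9 knockouts. At day 11, against 24.1 and 23.5 TPM in wild type, it was at 2.55 and 1.80 TPM without Figla, 1.38 and 3.40 TPM without Lhx8, and 0.82 and 0.96 TPM without Stat3. The libraries labelled Sub1 knockout held 3.53 and 2.71 TPM. All 8 of these libraries lay below both wild-type libraries, and the log2 changes ran from -3.72 ± 0.21 for Stat3 to -2.60 ± 0.21 for Sub1 (adjusted p at most 1.8e-10, limma).

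At day 13, against 115.5 and 118.5 TPM in wild type, Kif17 was at 6.09 and 3.81 TPM without Sohlh1 and at 5.98 and 9.05 TPM without Dynll1. It was at 27.5 and 28.7 TPM without Tbpl2 and at 28.1 and 35.0 TPM without Nobox. The libraries labelled Ccnk knockout held 50.1 and 41.3 TPM. The groups did not overlap, and the log2 change was -4.34 ± 0.21 for Sohlh1, -3.82 ± 0.21 for Dynll1, -2.02 ± 0.21 for Tbpl2, -1.87 ± 0.21 for Nobox and -1.34 ± 0.21 for Ccnk, with adjusted p at most 6e-05. The Ybx3 knockout, at 65.5 and 57.2 TPM, was lower than wild type without passing the threshold, and fell after rescaling (log2 change -1.26, adjusted p = 1.8e-05). In the other nine knockouts its mean lay between 85.5 TPM (Thap7) and 149 TPM (Hes6).

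In the 9 knockouts in which Kif17 fell, the summed oocyte markers were between 1440 and 42110 TPM per library. In the other 10 they were between 33370 and 67360 TPM. The 9 include all 4 knockouts of day 11, while the other 10 are all of day 13. Wild type itself differed between the days, with 9036 and 9225 TPM at day 11 and 59190 and 60640 TPM at day 13. The Ccnk libraries, in which Kif17 fell, overlapped the second range. The part that the share of oocytes among the sorted cells plays in the level of Kif17 was not tested.

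Kif14, which binds the midzone protein PRC1 and citron kinase in cytokinesis, had a mean change below 0 in all 19 knockouts, before and after rescaling, and fell in 8. Wild type held 64.2 and 50.8 TPM at day 11 and 78.4 and 82.3 TPM at day 13. The lowest means were 8.14 ± 1.10 TPM without Lhx8 and 8.38 ± 0.39 TPM without Nobox (SD, n = 2), with log2 changes of -2.67 ± 0.20 and -3.12 ± 0.20. The Stat3 libraries were at 13.9 and 11.2 TPM, those of Figla at 16.3 and 17.0 TPM, and those labelled Sub1 at 18.2 and 16.8 TPM. At day 13 Kif14 was at 16.2 and 6.57 TPM without Sohlh1, at 17.7 and 16.5 TPM without Dynll1 and at 38.8 and 37.8 TPM without Tbpl2. No library of these 8 knockouts reached its wild type, and the adjusted p was at most 1.1e-04. The changes in the other 11 did not pass the threshold, the Ybx3 libraries (46.2 and 44.7 TPM) among them, which fell after rescaling (log2 change -1.15, adjusted p = 2.8e-05).

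Kif16b fell in 5 knockouts. From 138 and 139 TPM in wild type of day 11 it went to 38.5 and 33.3 TPM without Lhx8 (log2 change -1.93 ± 0.10, adjusted p = 1.2e-14). It was at 57.5 and 60.2 TPM without Stat3, at 61.5 and 58.2 TPM in the Sub1 libraries and at 72.2 and 65.1 TPM without Figla, log2 changes of -1.22, -1.20 and -1.01. At day 13, against 134.5 and 113 TPM, Dynll1 knockout libraries held 40.3 and 43.1 TPM (log2 change -1.54 ± 0.10). In the Sohlh1 knockout, at 67.0 and 56.9 TPM, the change missed the threshold of 1 and passed it after rescaling (-1.35) or without Sohlh1 replicate 1 (-1.10) or wild-type replicate 2 (-1.11). Elsewhere at day 13 Kif16b lay between 90.0 TPM (Tbpl2) and 159 TPM (Ccnk), and its sign depended on the scaling or on single libraries in 4 knockouts.

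Kif18a and Kif20b, both motors of dividing cells, moved the other way. Kif18a was at 18.2 and 25.0 TPM in wild type of day 11 and rose without Stat3 (77.9 and 92.9 TPM), Lhx8 (63.6 and 58.7 TPM) and Figla (60.4 and 52.8 TPM). At day 13 wild type held 9.93 and 8.27 TPM, and Kif18a rose without Dynll1 (68.7 and 71.0 TPM), Tbpl2 (53.1 and 53.6 TPM), Nobox (27.9 and 42.0 TPM) and Ybx3 (26.7 and 33.6 TPM). None of these libraries overlapped its wild type. The largest log2 change was 2.82 ± 0.49 for Dynll1 (adjusted p = 1.6e-05) and the smallest 1.36 ± 0.49 for Figla (adjusted p = 0.023).

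The calls of Kif18a without Stat3, Dynll1, Tbpl2 and Nobox held with each library left out in turn. That without Figla was lost on leaving out wild-type replicate 1 or either Figla library (adjusted p between 0.059 and 0.14), and that without Lhx8 on leaving out wild-type replicate 1 or either Lhx8 library (between 0.057 and 0.11). The call without Ybx3 was lost without wild-type replicate 2 (0.073) or Ybx3 replicate 2 (0.077). With a pseudocount of 0.1 TPM the adjusted p was 0.25 for Figla, 0.23 for Lhx8, 0.098 for Stat3 and 0.19 for Ybx3, and after rescaling it was 0.06 for Figla. In the Sohlh1 knockout Kif18a was called lower, at 7.92 and 0 TPM, and the fall rested on replicate 2: without it the log2 change was -0.17 (adjusted p = 0.61).

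Kif20b, needed for abscission at the end of cytokinesis, rose in 5 knockouts. It was at 16.6 and 30.7 TPM in wild type of day 11, at 55.6 and 53.3 TPM without Stat3 and at 55.6 and 49.6 TPM without Figla. From 13.3 and 16.0 TPM at day 13 it went to 55.1 and 57.5 TPM without Dynll1 (log2 change 1.88 ± 0.20, adjusted p = 1.1e-08), 36.0 and 33.5 TPM without Nobox and 31.7 and 39.9 TPM without Tbpl2. The groups did not overlap in any of the 5. After rescaling only the rises without Stat3 and Dynll1 passed the threshold.

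The summed TPM of 12 markers of dividing cells was 852 and 905 in wild type of day 11 and 688 and 728 in that of day 13. It lay between 902 and 2360 TPM in the knockouts in which Kif18a rose, at 661 and 670 TPM in the Sohlh1 knockout, and between 694 and 1400 TPM in the other 11. Whether the kinesins followed these markers through dividing cells in the sort was not tested.

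**Figure D3:**
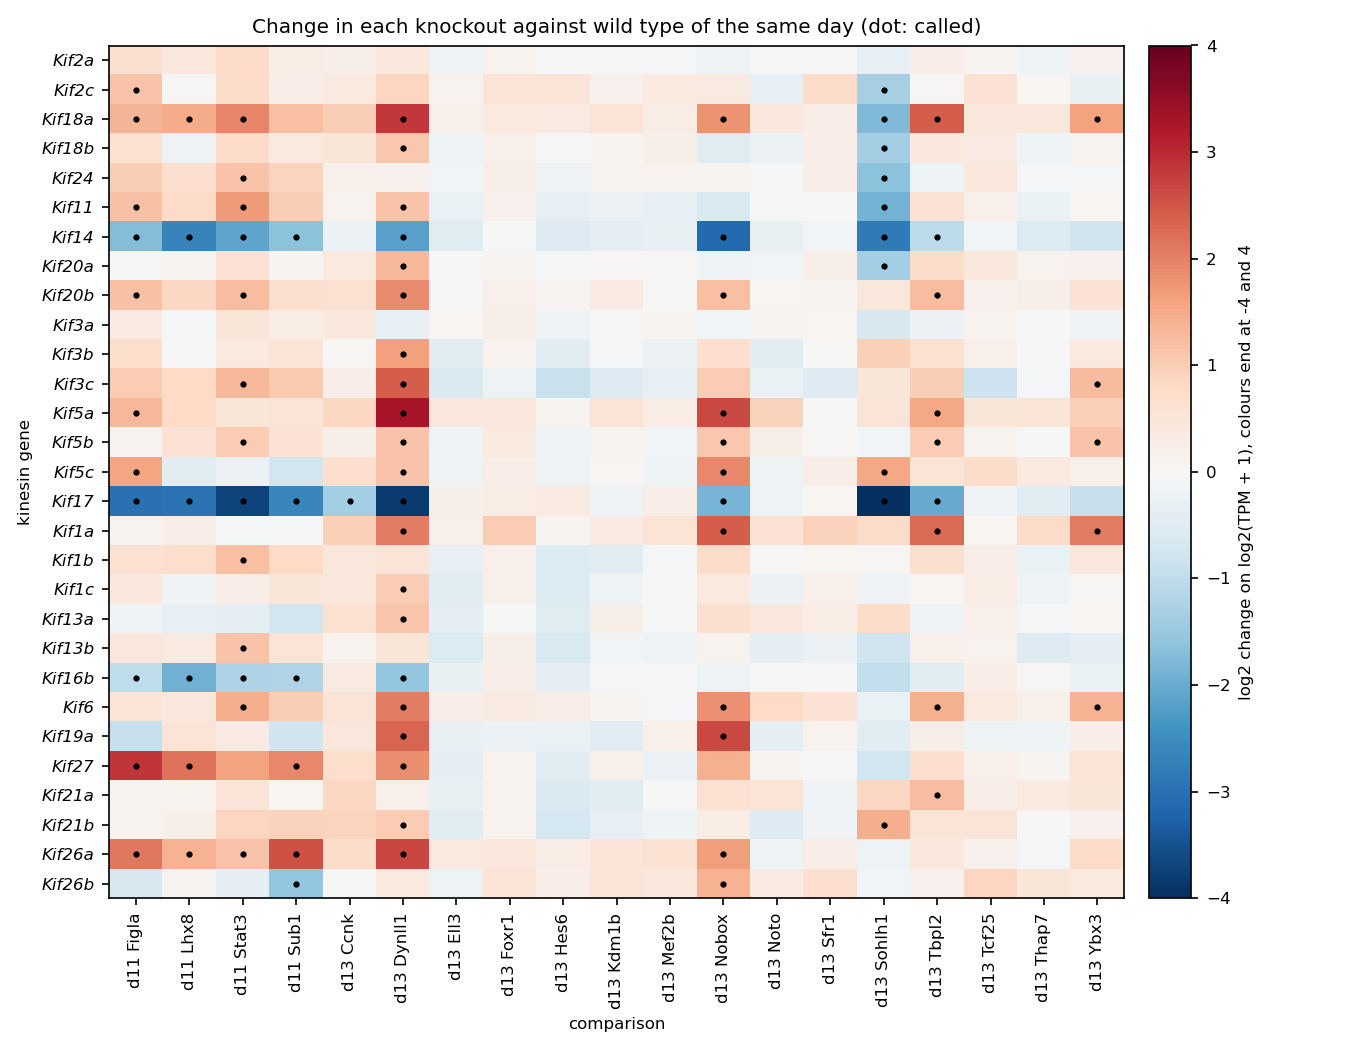
Log2 change of each tested kinesin gene (rows) in each knockout against wild type of the same day (columns), red higher and blue lower, with a dot where the gene was called. The blue rows of Kif14, Kif16b and Kif17 and the red row of Kif18a run across the 4 knockouts of day 11.

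By knockout, Figla changed 11 of 31 kinesins, 8 higher and 3 lower, with 28.1% of all genes called, 18.6% higher and 9.52% lower. After rescaling the split was 4 higher and 3 lower. Beside the genes above, Kif27, linked to motile cilia, was at 51.7 TPM against 7.19 TPM (log2 change 2.87 ± 0.73, adjusted p = 0.0019), a call lost without wild-type replicate 1 (adjusted p = 0.054). Kif5c, a heavy chain of conventional kinesin, was at 31.9 against 10.4 TPM (log2 change 1.59 ± 0.26, adjusted p = 1.4e-05). Kif26a was at 2.79 and 3.91 TPM and listed at 0 in both wild-type libraries of day 11.

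Kif26a rose in all 4 knockouts of day 11 from that wild type listed at 0, to 2.35 and 1.03 TPM (Lhx8), 1.43 and 1.04 TPM (Stat3) and 3.01 and 7.34 TPM (Sub1). No fold is given for these. The Lhx8 call was lost without Lhx8 replicate 1 (adjusted p = 0.12), and the Stat3 call after rescaling.

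Lhx8 changed 6 of 31, 3 higher and 3 lower, with 21.9% of all genes called (12.4% higher, 9.47% lower), and 3 without Lhx8 replicate 1. Kif27 was at 31.5 TPM there (log2 change 2.18 ± 0.73, adjusted p = 0.018). Its call was lost without wild-type replicate 1 (adjusted p = 0.22) or either Lhx8 library (0.065 and 0.077), and with a pseudocount of 0.1 TPM (0.13).

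The libraries labelled Sub1 knockout had 6 of 31, 2 higher and 4 lower, with 22.8% of all genes called (13.5% higher, 9.26% lower), and 11 without wild-type replicate 1. Kif27 was at 26.2 TPM (log2 change 1.92 ± 0.73, adjusted p = 0.036), and was not called without wild-type replicate 1 (0.33), without either Sub1 library (0.14 and 0.082) or with a pseudocount of 0.1 TPM (0.18). Kif26b was listed at 0 in both libraries, against a wild-type mean of 2.41 TPM, and the fall was not called without wild-type replicate 2 (adjusted p = 0.23).

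Stat3 changed 13 of 31, 10 higher and 3 lower, with 27.3% of all genes called (15.8% higher, 11.5% lower), and 6 higher and 3 lower after rescaling. Kif11, the motor that separates spindle poles, was at 98.9 and 99.0 TPM against 30.5 and 29.5 TPM, a log2 change of 1.69 ± 0.25 (adjusted p = 2.3e-06). Kif5b, the ubiquitous heavy chain of conventional kinesin, was at 80.1 and 82.2 TPM against 50.8 and 31.3 TPM (log2 change 1.01 ± 0.18, adjusted p = 3.1e-05) and was not called after rescaling. Kif6 was at 1.95 against 0.085 TPM (adjusted p = 0.012), not called without wild-type replicate 2 (0.068) or Stat3 replicate 2 (0.077). Kif3c, a partner of Kif3a, was at 10.8 against 3.81 TPM (log2 change 1.33 ± 0.44, adjusted p = 0.016). Its call was lost without wild-type replicate 2 (0.14) or either Stat3 library (0.076 and 0.051), and with a pseudocount of 0.1 TPM (0.07).

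Dynll1, which encodes a light chain shared by dynein and other complexes, had the most kinesins called on the TPM as deposited. There were 21 of 31, 18 higher and 3 lower, with 48.2% of all genes called (37.7% higher, 10.4% lower), and 9 higher and 3 lower after rescaling, when the Sohlh1 knockout had 3 higher and 10 lower. The median log2 change was 1.08 over the kinesins and 0.69 over all genes. Kif5a went from 0.29 and 0.94 TPM to 13.0 and 16.2 TPM (log2 change 3.29 ± 0.45, adjusted p = 4.2e-07), and Kif26a from 0.79 and 0.65 TPM to 11.1 and 8.75 TPM (2.66 ± 0.41, adjusted p = 2.9e-06). Kif3c rose from 1.66 to 13.3 TPM and Kif19a from 0.365 to 5.76 TPM, log2 changes of 2.44 ± 0.44 and 2.32 ± 0.40. Kif20a, from 60.3 and 58.9 TPM to 149.1 and 148.7 TPM, was called at 1.31 ± 0.16 and not after rescaling (0.67).

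Nobox changed 13 of 31, 11 higher and 2 lower, with 38.5% of all genes called (30% higher, 8.5% lower), and 8 higher and 4 lower after rescaling. Kif19a was at 7.51 against 0.365 TPM (log2 change 2.65 ± 0.40, adjusted p = 3e-06), Kif5a at 9.64 and 8.22 TPM (2.65 ± 0.45) and Kif1a at 7.25 and 4.25 TPM (2.41 ± 0.42). Kif5c was at 24.8 against 5.75 TPM, a log2 change of 1.93 ± 0.26. Kif1bp rose from 50.0 and 55.8 TPM to 109.5 and 121 TPM (1.11 ± 0.15, adjusted p = 6.7e-07) and was not called after rescaling. Kif11 and Kif18b were then called lower, at -1.18 and -1.045.

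Tbpl2 changed 9 of 31, 7 higher and 2 lower, with 29.2% of all genes called (22.8% higher, 6.35% lower), and 4 higher and 2 lower after rescaling. Kif1a was at 5.23 and 4.69 TPM (log2 change 2.27 ± 0.42, adjusted p = 6.6e-05). Kif5a, at 4.35 and 2.93 TPM, was not called without wild-type replicate 1 (adjusted p = 0.076) or Tbpl2 replicate 1 (0.06). Kif6, at 2.47 against 0.19 TPM, was not called without wild-type replicate 1 (0.056) or Tbpl2 replicate 1 (0.21). Kif21a, which restrains microtubule growth, was at 27.0 against 10.9 TPM (1.23 ± 0.20, adjusted p = 1.4e-05) and at 0.82 after rescaling.

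Ybx3 changed 5 of 31, all higher, with 17.9% of all genes called (15.7% higher, 2.21% lower), and 3 higher and 2 lower after rescaling. Kif1a was at 4.34 and 4.10 TPM (log2 change 2.08 ± 0.42, adjusted p = 3.2e-04). Kif5b, at 50.6 and 49.4 TPM against 22.2 and 22.0 TPM (1.14 ± 0.18, adjusted p = 1.2e-05), was at 0.81 after rescaling. The calls of Kif6 (2.10 against 0.19 TPM) and Kif3c (5.55 against 1.66 TPM) were the least firm. Kif6 was not called on leaving out any 1 of the 4 libraries (adjusted p between 0.073 and 0.092), nor Kif3c without either wild-type library (0.062 and 0.16) or Ybx3 replicate 2 (0.27). With a pseudocount of 0.1 TPM both missed the threshold (0.06 and 0.068), and 2 calls were left in all. The count was 2 without wild-type replicate 2 or Ybx3 replicate 2 and 3 without wild-type replicate 1.

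Without Sohlh1 11 of 31 were called, 3 higher and 8 lower, with 35.7% of all genes called, 22.3% higher and 13.4% lower, and 3 higher and 10 lower after rescaling. Kif11 was at 16.0 and 5.18 TPM against 37.0 and 36.6 TPM (log2 change -1.88 ± 0.25, adjusted p = 3.4e-07). Kif24, a depolymerase at the centriole, was at 8.07 against 22.1 TPM (-1.65 ± 0.34), and was not called without Sohlh1 replicate 2 (-0.68). Kif18b, Kif20a and Kif2c fell by 1.37, 1.35 and 1.34 on the log2 scale. Kif16bos was listed at 0 in wild type and in 1 Sohlh1 library and at 79.2 TPM in the other, so its call rested on replicate 2 and the groups overlapped. That call was also lost with a pseudocount of 0.1 TPM (adjusted p = 0.065) or without either wild-type library (0.077). The 2 libraries differed in 11 macrophage and blood markers, whose sum was 214 TPM in one and 3764 TPM in the other, and in 10 stromal and endothelial markers (268.7 and 3858 TPM), and their part in these changes was not tested.

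In the libraries labelled Ccnk knockout Kif17 alone was called, 1 of 31 with 6.14% of all genes called, 5.23% higher and 0.91% lower. There were 2 calls without wild-type replicate 1. In the remaining 9 knockouts (Ell3, Foxr1, Hes6, Kdm1b, Mef2b, Noto, Sfr1, Tcf25 and Thap7) limma called no kinesin, with few of all genes called. The share of all genes was 0.114% for Ell3, 0.504% for Tcf25, 0.593% for Hes6, 1.08% for Mef2b, 1.24% for Sfr1, 1.88% for Foxr1, 2.23% for Noto, 2.74% for Thap7 and 3.19% for Kdm1b. Of the 279 tests of a kinesin in these 9, 40 had an unadjusted p under 0.05. The share of all genes at that cutoff alone was not computed. The largest change was 1.03 on the log2 scale.

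Somatic cells of the gonad could stay with sorted oocytes, and their 15 markers were followed for that reason. At day 11, against 1016 to 1068 TPM in wild type, the sum lay between 878.7 TPM (Sub1) and 1609 TPM (Lhx8). At day 13, against 39.6 to 42.9 TPM in wild type, it was higher in every knockout in which a kinesin was called, from 172.0 TPM (a Sohlh1 library) to 1404 TPM (a Ybx3 library). It was also above wild type in all 9 knockouts without a kinesin call, from 50.6 TPM (an Ell3 library) to 335 TPM (a Kdm1b library), and these ranges overlapped. The rises of Kif1a, Kif5a and Kif5b without Dynll1, Nobox, Tbpl2 or Ybx3 stand beside these sums. After rescaling no rise of Kif5b was called in any knockout. The part of somatic cells in the rises was not tested.

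Of the genes that work with kinesins, Madd, whose protein links Kif1a and Kif1b to vesicles, rose on the TPM as deposited in all 10 knockouts in which a kinesin was called. Its log2 change lay between 1.17 (Sohlh1) and 3.12 (Stat3). Of 19 listed light chains, adaptors and binding proteins 14 were tested, and without Dynll1 8 rose and 1 fell (median 1.10 against 0.69 over all genes). Tubb2b, a beta tubulin, fell in all 4 knockouts of day 11, by 3.29 (Figla), 3.77 (Lhx8), 3.30 (Stat3) and 2.03 (Sub1) on the log2 scale. Of the 12 spindle partners tested, 8 fell and none rose without Sohlh1 (median -1.24 against 0.08 over all genes), led by Kntc1, a kinetochore protein, at -3.51. Birc5, the survivin subunit of the chromosomal passenger complex, fell by 2.58 without Dynll1 and by 2.85 without Nobox. Other members of that complex did not all follow: Aurkb rose by 2.39 without Dynll1, while Incenp and Cdca8 fell by 1.23 and 1.09 without Nobox. Kifc1, a minus-end motor whose symbol falls outside the pattern, fell without Lhx8, Stat3, Sub1 and Nobox, by between 1.25 and 1.81, and is uncertain because reads of the near-identical Kifc5b could be counted with it.

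In the DIOLs the leading change was again Kif17, which was near 1 TPM in the first week and passed 100 TPM later. In the DIOLs.S series it was at 0.82 and 1.54 TPM on day 1, at 1.04 and 1.32 TPM on day 3, at 0.68 and 2.21 TPM on day 5 and at 1.44 and 2.60 TPM on day 7. On day 14 it was at 105.1 and 105.2 TPM, a log2 change of 5.16 ± 0.22 against day 7 (SE, n = 2 a group; limma adjusted p = 6.2e-13). Both libraries of day 14 stood above the 8 libraries of the earlier days. In the DIOLs series Kif17 was at 0.90 and 0.54 TPM on day 5, at 20.1 and 21.3 TPM on day 10, at 85.4 and 72.1 TPM on day 15 and at 157 and 162 TPM on day 25. No 2 of these times overlapped, and each step was called, with log2 changes of 3.66, 1.88 and 1.02 ± 0.22. The last step fell under the threshold of 1 without replicate 2 of day 15 (0.89) or of day 25 (0.99).

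**Figure D4:**
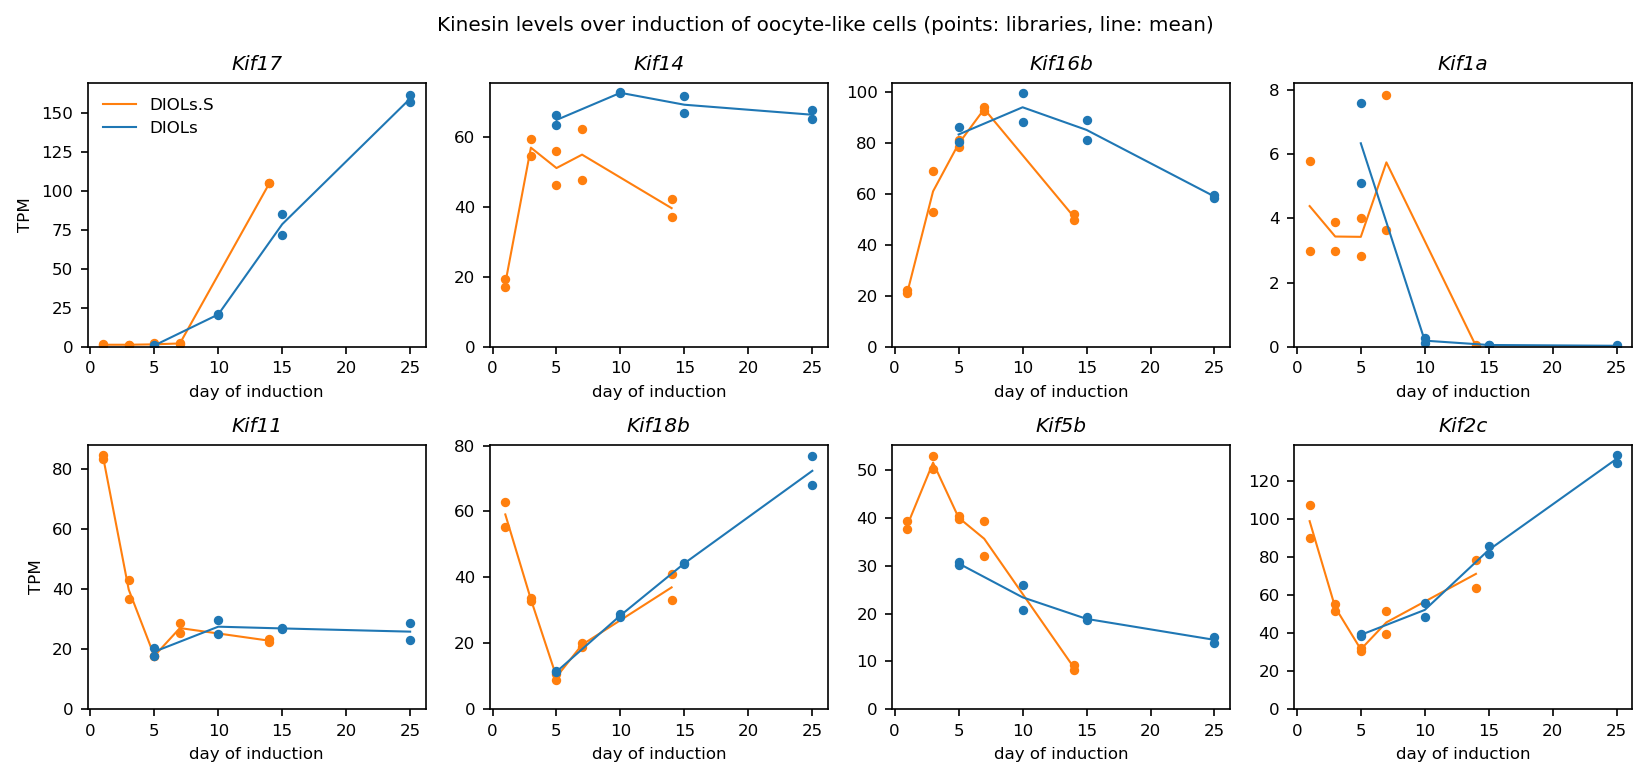
TPM of 8 kinesin genes by day of induction, DIOLs.S in orange and DIOLs in blue, with a point per library and a line through the means. Kif17 leaves the baseline after day 5 to 7, while Kif11 drops over the first 5 days.

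Over the same days the summed oocyte markers went from 415 to 467 TPM on day 1 of DIOLs.S to 84410 to 87900 TPM on day 14. In DIOLs they went from 10680 to 10770 TPM on day 5 to 60660 to 60890 TPM on day 25. How far Kif17 followed the share of oocyte-like cells was not tested.

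From day 1 to day 3 of DIOLs.S, Kif14 and Kif16b rose while Kif11 and Kif18a fell. Kif14 rose from 17.0 and 19.3 TPM to 59.3 and 54.6 TPM (log2 change 1.60 ± 0.16, adjusted p = 7.5e-08), and Kif16b from 20.9 and 22.0 TPM to 69.0 and 52.8 TPM (1.45 ± 0.11, adjusted p = 2.5e-09). Kif11 fell from 83.1 and 84.5 TPM to 42.8 and 36.7 TPM (-1.06 ± 0.15, adjusted p = 9.8e-06). These groups did not overlap. Kif18a fell from 36.7 and 46.6 TPM to 24.1 and 15.4 TPM (-1.06 ± 0.20, adjusted p = 1.6e-04), and Kif26a from 11.35 and 9.17 TPM to 2.40 and 1.81 TPM (-1.86 ± 0.36, adjusted p = 2.6e-04). Kif5c rose by 1.22, a change of 0.96 without replicate 2 of day 3. Kif3c and Kif19a fell by 1.20 and 1.19, and Kif19a was not called with a pseudocount of 0.1 TPM (adjusted p = 0.074).

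In total, 8 of 30 kinesins were called, 3 higher and 5 lower, with 20.9% of all genes called (11.9% higher, 9% lower), and 5 without replicate 2 of day 3. After rescaling the split was 3 higher and 9 lower, with Kif18b, Kif20a, Kif20b and Kif2c added. The highest of all at both times, Kif20a, was at 152 and 161 TPM on day 1 and at 86.0 and 73.2 TPM on day 3, and its change passed the threshold after rescaling (-1.19) and on leaving out replicate 1 of day 1 (-1.01) or of day 3 (-1.09). The markers of dividing cells summed to 3354 to 3682 TPM on day 1 and to 1602 to 1722 TPM on day 3.

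From day 3 to day 5 of DIOLs.S, 5 of 30 kinesins were called, 2 higher and 3 lower, with 7.95% of all genes called (3.81% higher, 4.14% lower), and after rescaling 2 higher and 2 lower. Kif18b, a depolymerase that keeps astral microtubules short, fell from 33.0 and 33.7 TPM to 8.97 and 10.6 TPM (log2 change -1.68 ± 0.14, adjusted p = 4.6e-08). Kif11 fell further, to 17.8 and 17.5 TPM (-1.12 ± 0.15). Kif27 rose from 5.01 and 3.97 TPM to 16.5 and 16.2 TPM (1.67 ± 0.21, adjusted p = 9.1e-06). Kif5a rose from 2.95 to 7.83 TPM (1.16 ± 0.19) and was not called with a pseudocount of 0.1 TPM (adjusted p = 0.063). Kif19a fell from 1.98 to 0.405 TPM (-1.08), and the change was -0.96 after rescaling and -0.95 without replicate 1 of day 3. Kif16b had the highest level on day 5, at 80.9 and 78.2 TPM.

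From day 5 to day 7 Kif27 alone was called, falling back to 5.69 and 6.74 TPM (log2 change -1.27 ± 0.21, adjusted p = 1.6e-04), 1 of 30 with 8.06% of all genes called, 2.96% higher and 5.09% lower. The call was lost in a single fit over all libraries (adjusted p = 0.15). The count was 2 without either library of day 5 or without replicate 1 of day 7, and 5 without replicate 2 of day 7. Kif16b was again the highest, at 92.2 and 94.1 TPM.

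From day 7 to day 14 Kif17 rose, and Kif1a, Kif5b and Kif5a fell. Kif1a went from 7.85 and 3.65 TPM to 0 and 0.04 TPM (log2 change -2.65 ± 0.29, adjusted p = 9.5e-08), and Kif5b from 39.3 and 31.95 TPM to 8.15 and 9.31 TPM (-1.91 ± 0.15, adjusted p = 2e-09). Kif5a went from 3.25 and 4.69 TPM to 0.43 TPM in both libraries (-1.78 ± 0.19). The 2 times overlapped for none of them. Kif21a fell by 1.52 and Kif13a by 1.37 on the log2 scale, and the second was at -0.92 after rescaling. Kif13b and Kif3b fell by 1.30 and 1.20, and Kif26b rose by 1.06.

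That made 9 of 30 called, 2 higher and 7 lower, with 40.5% of all genes called, 7.78% higher and 32.8% lower. After rescaling, 4 were higher and 4 lower. Kif13a, Kif13b and Kif3b were no longer called, and Kif18b (1.36) and Kif2c (1.12) were called higher. The summed markers of gonadal somatic cells were at 531 and 2239 TPM in the libraries of day 7 and at 53.3 and 84.6 TPM in those of day 14. The stromal and endothelial markers went from 127 and 538 TPM to 20.6 and 28.0 TPM. The part of these cells in the falls was not tested. Of the 10 tubulins tested 6 rose and 2 fell, and Tubb6 rose most (3.29).

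DIOLs without the S shared the rise of Kif17 and the falls of Kif1a and Kif5a. At the step from day 5 to day 10 Kif26b fell and Kif5b was not called. From day 7 to day 14 of DIOLs.S Kif26b had risen and Kif5b had fallen, but these steps cover different days. Mean Kif26b also went down in DIOLs.S before that, from 1.98 TPM on day 1 to 0.79 TPM on day 7. In DIOLs it later reached 3.12 TPM on day 25. Mean Kif5b in DIOLs went from 30.5 TPM on day 5 to 14.5 TPM on day 25. From day 5 to day 10, 5 of 30 kinesins were called, 2 higher and 3 lower, with 23.1% of all genes called (3.92% higher, 19.2% lower), and after rescaling 2 higher and 2 lower. Kif1a fell from 7.59 and 5.10 TPM to 0.11 and 0.26 TPM (log2 change -2.61 ± 0.29, adjusted p = 3.2e-07) and Kif5a from 5.99 and 5.31 TPM to 1.57 and 1.48 TPM (-1.40 ± 0.19). Kif18b rose from 11.4 and 11.25 TPM to 28.0 and 28.9 TPM (1.26 ± 0.14, adjusted p = 2.5e-07). Kif26b fell from 2.05 to 0.36 TPM (-1.17, and -0.92 after rescaling). The 15 somatic markers summed to 40.4 to 45.7 TPM on day 5 and 41.3 to 74.1 TPM on day 10. The 10 stromal and endothelial markers summed to 879 to 899 TPM and then 11.6 to 15.8 TPM, and the 11 macrophage and blood markers to 649 to 667 TPM and then 70.5 to 73.9 TPM. Their part in the falls of Kif1a and Kif5a was not tested.

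Kif16b was the highest kinesin in DIOLs of day 5 (83.2 TPM), day 10 (93.8 TPM) and day 15 (84.9 TPM). From day 10 to day 15 only Kif17 was called, 1 of 30 with 3.64% of all genes called, 1.12% higher and 2.52% lower. From day 15 to day 25 there were 3 of 30, all higher, with 7.57% of all genes called (4.38% higher, 3.19% lower), and 1 without replicate 2 of day 15. Beside Kif17, Kif21b, a processive motor that limits microtubule growth, rose from 2.47 and 2.53 TPM to 7.07 and 6.37 TPM (log2 change 1.14 ± 0.24, adjusted p = 0.0012). Kif26b rose from 0.99 to 3.12 TPM (1.01 ± 0.27, adjusted p = 0.0076). This last call was lost without replicate 2 of day 15 (adjusted p = 0.058) or replicate 1 of day 25 (0.13), and in a single fit over all libraries (0.051). Kif18b and Kif2c did not pass the threshold at these steps. Kif18b was at 44.0 and 44.5 TPM on day 15 and at 67.9 and 76.8 TPM on day 25, and Kif2c was at 39.5 and 38.7 TPM on day 5 and at 130 and 134 TPM on day 25.

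Both kinds of DIOL were sampled at day 5, and there limma called none of the 30 kinesins, with 11.9% of all genes called. Of the 30, 16 had an unadjusted p and 7 an adjusted p under 0.05, and the largest change was 0.99 on the log2 scale. The share of all genes at these p cutoffs, which set no threshold on the change, was not computed. One kinesin was called with a pseudocount of 0.1 TPM, after rescaling (Kif21b), or without replicate 2 of DIOLs.S or either replicate of DIOLs. Kif16b was the highest in both, at 80.9 and 78.2 TPM in DIOLs.S and 80.3 and 86.0 TPM in DIOLs.

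**Figure D5:**
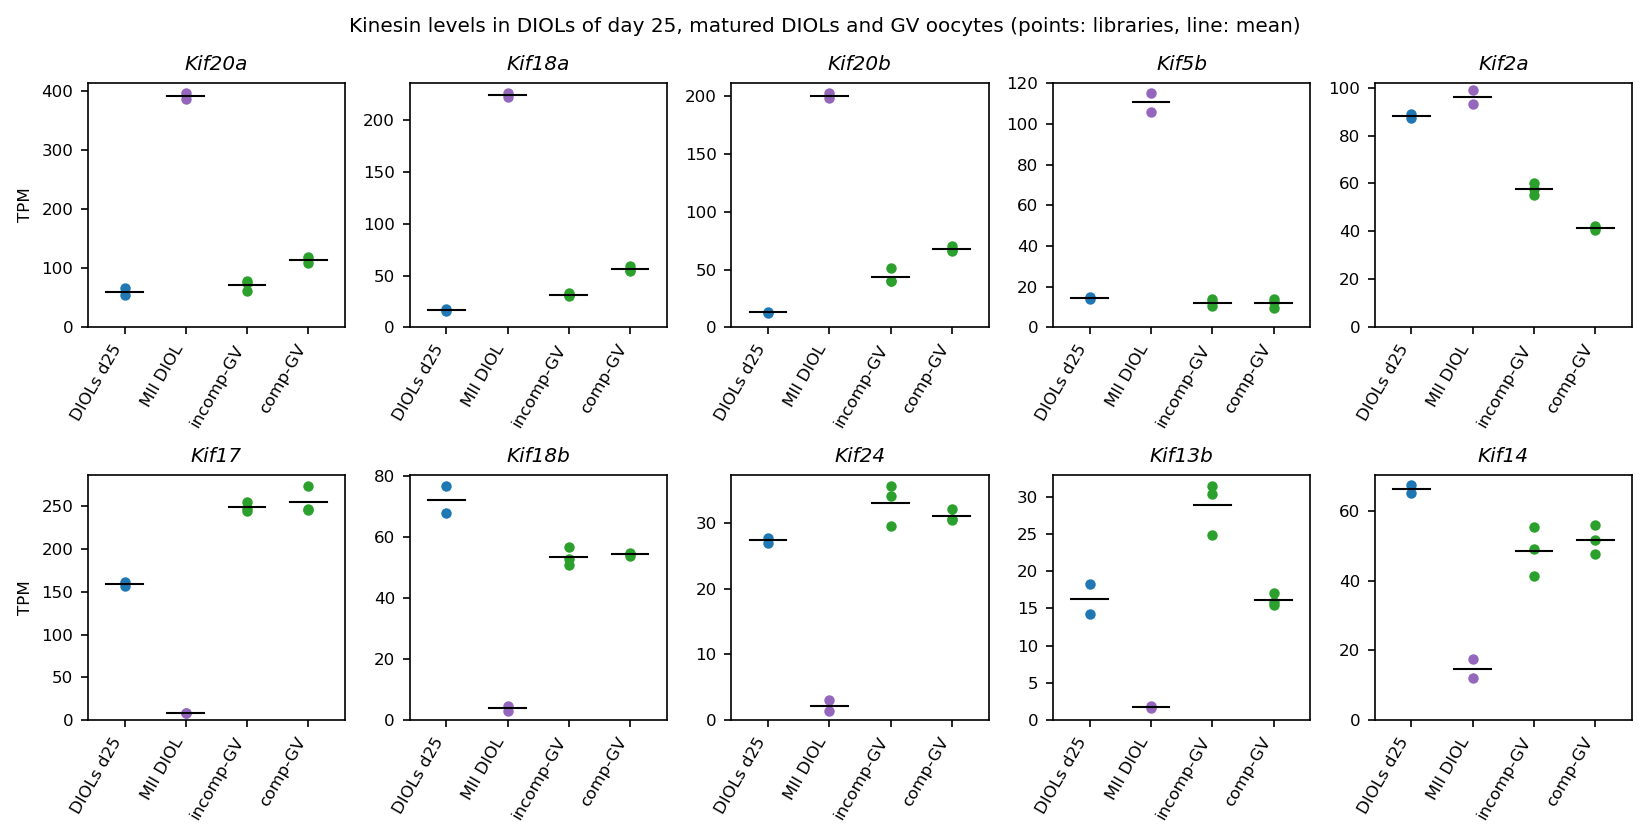
TPM (linear scale) of 10 kinesin genes in DIOLs of day 25 (blue), MII DIOL (purple) and incomp and comp GV oocytes (green), with a point per library and a line at the mean. Kif20a, Kif18a, Kif20b and Kif5b are highest in MII DIOL, where Kif17, Kif18b, Kif24, Kif13b and Kif14 are lowest.

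Matured MII DIOL cells differed from DIOLs of day 25 by large changes both ways. The libraries measure poly(A) RNA, so the changes here and against GV oocytes are of poly(A) RNA, and total RNA was not measured. The motors of chromosome alignment and cytokinesis led the rises. Kif20b went from 12.8 and 13.5 TPM to 198 and 202 TPM (log2 change 3.83 ± 0.12, adjusted p = 1e-16), Kif18a from 15.8 and 17.5 TPM to 223 and 226 TPM (3.68 ± 0.20, adjusted p = 4.8e-13), and Kif20a from 54.9 and 66.0 TPM to 386.5 and 398 TPM (2.68 ± 0.13, adjusted p = 4.5e-14). Of the heavy chains of conventional kinesin, Kif5b and Kif5c rose and Kif5a was not called (log2 change -0.10, adjusted p = 0.66). Kif5b went from 13.9 and 15.1 TPM to 106 and 115 TPM (2.85 ± 0.15, adjusted p = 5.1e-13) and Kif5c from 7.74 and 6.90 TPM to 31.5 and 23.5 TPM (1.76 ± 0.20). Kif1a, at 0 and 0.05 TPM before, reached 1.87 and 3.18 TPM, and Kif3b rose by 1.03.

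The falls were led by Kif17, from 157 and 162 TPM to 8.56 and 8.08 TPM (log2 change -4.11 ± 0.22, adjusted p = 6.2e-13). Kif18b fell from 67.9 and 76.8 TPM to 4.62 and 3.02 TPM (-3.95 ± 0.14, adjusted p = 3e-16), the reverse of its relative Kif18a. Kif24 fell from 27.1 and 27.8 TPM to 1.39 and 2.98 TPM (-3.21 ± 0.19). None of these groups overlapped. Kif13b, at 16.3 TPM before and 1.72 TPM after, fell by 2.66, and Kif1bp, at 87.6 and 14.3 TPM, by 2.53. Kif3a fell by 2.18, while its partner Kif3b rose. Kif14 fell from 67.6 and 65.1 TPM to 17.5 and 11.9 TPM (-2.12 ± 0.16), against the direction of the other cytokinesis motors Kif20a and Kif20b. Kif27 and Kif21a fell by 1.64 and 1.24.

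In this comparison 16 of 30 kinesins were called, 7 higher and 9 lower, with 57.6% of all genes called (19.8% higher, 37.8% lower), so the share of kinesins was not above that of all genes. The median change was -0.56 over the kinesins and -0.39 over all genes. Rescaling moved the median change over all genes by 0.84 and gave 10 higher and 8 lower: Kif21a was no longer called, and Kif26a, Kif2a and Kif11 were called higher. Kif17, Kif20b and Kif18a kept their directions, at -3.20, 4.80 and 4.66. The markers of dividing cells, several of which are also stored in oocytes, summed to 968 to 977 TPM on day 25 and to 5771 to 5909 TPM in MII DIOL. Somatic markers summed to 29.6 to 34.5 TPM, with Amhr2, Inha, Hsd3b1 and Krt19 at 0, and to 468 to 859 TPM in MII DIOL, with Krt19 at 0. Stromal and endothelial markers summed to 25.6 to 66.5 TPM on day 25 and to 169 to 189.7 TPM in MII DIOL. The part of these cells in the rise of Kif1a, Kif5b and Kif5c was not tested.

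Partners of the kinesins moved both ways. Cep55, which acts at the midbody, and Cenpe, the kinesin that carries chromosomes to the spindle equator, rose by 4.26 and 3.90 on the log2 scale. Kifap3, the subunit that joins Kif3a and Kif3b to cargo, fell by 4.27. Of 14 light chains and adaptors 3 rose and 8 fell (median -1.28), and of 12 spindle partners 3 rose and 7 fell (median -1.81), against -0.39 over all genes. All 8 called tubulins of 10 fell, with Tubb2b at -6.44 on the log2 scale, and the summed level of the 11 tubulins in the table went from 4664 to 4715 TPM to 343 to 360 TPM.

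Against comp GV oocytes of the animal, MII DIOL showed 18 of 30 kinesins called, 6 higher and 12 lower, with 50.2% of all genes called, 18.3% higher and 31.9% lower. The difference covers origin as well as stage, and these cannot be told apart. Kif17 was at 274, 247 and 246 TPM in comp GV oocytes (log2 change -4.78 ± 0.20, adjusted p = 1.4e-14). Kif18b was at 54.5, 55.0 and 53.7 TPM (-3.54 ± 0.12), and Kif24 at 31.1 against 2.19 TPM (-3.38 ± 0.17). Kif5b was at 9.59, 14.1 and 12.7 TPM and rose by 3.11 ± 0.14 (adjusted p = 3.4e-14). The libraries of both kinds of cell did not overlap for any of these 4 genes.

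Kif18a, at 55.6, 59.7 and 54.2 TPM in comp GV oocytes, was higher in MII DIOL by 1.97 ± 0.18, Kif20a (117, 119 and 109 TPM) by 1.77 ± 0.11 and Kif20b (66.0, 70.5 and 66.7 TPM) by 1.55 ± 0.11. Kif2a, which shortens spindle microtubules at the poles, was at 40.8, 42.2 and 41.6 TPM in the oocytes and at 99.2 and 93.2 TPM in MII DIOL (1.19 ± 0.11). Kif13b and Kif1bp were lower by a log2 change of -2.66 and -2.32. After rescaling, which moved the median change over all genes by 0.76, 9 kinesins were higher and 8 lower. Kif14, Kif5c, Kif21b and Kif26b were then no longer called lower, and Kif16b, Kif19a and Kif21a were called higher. Of 10 tubulins tested 1 rose and 7 fell, with Tuba4a at -6.67, and Cep55 and Cenpe rose by 2.54 and 1.83.

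Between the 2 kinds of GV oocyte limma called no kinesin, with 9.96% of all genes called. The kind of oocyte and the week mark of the columns differ together here and cannot be told apart. Of the 30, 12 had an unadjusted p and 10 an adjusted p under 0.05, and the largest change was 0.82 on the log2 scale. These p cutoffs set no threshold on the change, and the share of all genes at them was not computed. With a pseudocount of 0.1 TPM there was 1 call. Kif17 was the highest in both, at 256, 245 and 248 TPM in incomp oocytes, which overlapped the comp oocytes. Kif2c was at 181, 159.5 and 132 TPM in incomp and at 207, 198 and 192 TPM in comp oocytes, and Kif20a at 78.6, 75.5 and 62.1 TPM in incomp oocytes, below the comp libraries. Kif1bp was at 67.9, 66.8 and 73.3 TPM in incomp and at 71.4, 74.7 and 79.9 TPM in comp oocytes. Kifap3 fell from incomp to comp oocytes by 1.33.

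DIOLs of day 25 differed from incomp GV oocytes in 5 of 30 kinesins, 1 higher and 4 lower, with 26.3% of all genes called, 12.8% higher and 13.5% lower. Kif21a was at 5.77 and 5.15 TPM in DIOLs and at 0.47, 0.38 and 0.16 TPM in the oocytes (log2 change 2.28 ± 0.22, adjusted p = 3e-08). Kif5c was at 7.74 and 6.90 TPM against 36.1, 35.5 and 38.4 TPM (-2.18 ± 0.19, adjusted p = 4.5e-09), and Kif20b at 12.8 and 13.5 TPM against 40.2, 39.9 and 51.7 TPM (-1.65 ± 0.11, adjusted p = 1.5e-10). Kif26a was at 0.605 against 5.39 TPM (-2.04 ± 0.33) and Kif13a at 4.00 against 9.80 TPM (-1.12), the last at -0.98 without replicate 2 of day 25. The groups did not overlap for these genes. Kifap3 was higher in DIOLs by 3.40 and Cenpe lower, at -1.22. Kif17, the highest kinesin in both, was not called.

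Set in order over the 33 groups, Kif17 was highest in comp GV oocytes (256 TPM) and incomp GV oocytes (249 TPM), whose libraries overlapped. DIOLs of day 25 came next (160 TPM, no overlap), then the Hes6, Foxr1, Mef2b and Ell3 knockouts (149 to 137 TPM), neighbours that overlapped. Wild type of day 13 was at place 9, wild type of day 11 at place 20, MII DIOL at place 22 with 8.32 TPM, and DIOLs of day 5 were last with 0.72 TPM.

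Over the 33 group means, on the log2(TPM + 1) scale, some motors moved in parallel. Kif20b and Kif18a gave the highest correlation among 27 motors (r = 0.90), followed by Kif1b with Kif1c (0.85) and Kif1a with Kif5a (0.82). The lowest was that of Kif1a with Kif17 (-0.80), then Kif5a with Kif17 (-0.75). These values are descriptions. The groups share wild-type libraries, stages and the fixed sum of TPM, and no test was made of them.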

How the data were processed

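RNA was measured by directional poly(A) sequencing, per the labels' protocols. The authors deposited a table of TPM values, for which STAR 2.6.0, featureCounts 1.6.0 and the build mm10 are named, per the submitters' processing notes. The annotation and the strand setting of the counting are not given in the sources used here. Read counts and depth are not in the values used, so no counting error can be given. The table was held only in part: its genes sum to 0.521 to 0.708 of the full TPM total per library, and 8011 to 10596 genes reach 1 TPM in a library. Of 15163 rows, 1 incomplete row and 22 with date-like names were left out. Of the remaining 15140, 14555 matched GENCODE M21.

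Of 148 value columns 68 matched a library of the series by name and 80 were not used. The columns of GV oocytes were matched by stage only, and the replicate numbers they carry were not matched to single libraries. Of 71 libraries in the series, 3 from primordial follicles matched no column and were not analysed here.

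Values were taken as log2(TPM + 1) and fitted with limma 3.58.1 (trend and robust, statmod 1.5.0, R 4.3.3), 1 mean a group, on genes with at least 1 TPM in at least 2 libraries. The in vitro oocytes (42 libraries, 21 groups, 12306 genes) and the DIOLs with GV oocytes (26 libraries, 12 groups, 11603 genes) were fitted apart. P-values are moderated limma p-values, adjusted by Benjamini-Hochberg over all genes of a comparison. Calls needed an adjusted p below 0.05 and a log2 change of 1 or more in either direction. The steps were tested on simulated data. The alternatives were a pseudocount of 0.1 TPM, no filter, TPM rescaled by the median of ratios, a single fit over all libraries, a replicate block and each library left out. A fit without the Sohlh1 libraries was chosen after seeing the data.

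Members, lists of partners and markers, and the naming rule were chosen with earlier results of these data known. The rule named, in each comparison, every kinesin called where there were 6 or fewer and otherwise the 6 with the largest change, the kinesin with the highest level, and the partner with the largest called change in a list. Genes named beyond this rule were chosen after their values were seen.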

Additional observations from a re-analysis of the deposited data

How the results depend on the processing

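Of the counts of called kinesins, these moved by over 1.5 times with the processing. After rescaling by the median of ratios the count was 7 for Figla, 12 for Dynll1 and 1 for DIOLs.S against DIOLs at day 5. With a pseudocount of 0.1 TPM it was 2 for Ybx3, 1 for DIOLs.S against DIOLs at day 5 and 1 for comp against incomp GV oocytes. In a single fit over all libraries it was 0 for day 7 against day 5 of DIOLs.S. Without the Sohlh1 libraries, an alternative chosen after seeing the data, it was 1 for Foxr1. Rescaling moved the median change over all genes by between -0.592 (Dynll1) and 0.839 (MII DIOL against DIOLs of day 25) on the log2 scale. It turned the sign of Kif16b in wild type over time (0.266), in the Noto (-0.029), Sfr1 (-0.116) and Thap7 (-0.078) knockouts and in DIOLs.S against DIOLs at day 5 (0.052). Leaving out 1 library turned Kif16b, with values from -0.197 to 0.05 in Kdm1b, -0.077 to 0.169 in Noto, -0.109 to 0.138 in Sfr1 and -0.078 to 0.168 in Thap7, and Kif17 between GV oocytes (-0.016 to 0.061). None of these changes was called, and the cause was not tested. Leaving out each library in turn, where a lone library is assumed to vary like the other groups, gave 2 to 7 calls for wild type over time, 10 to 11 for Figla, 3 to 8 for Lhx8, 9 to 12 for Stat3, 5 to 11 for Sub1, 1 to 2 for Ccnk, 17 to 19 for Dynll1, 12 to 13 for Nobox, 8 to 16 for Sohlh1, 7 to 9 for Tbpl2, 2 to 6 for Ybx3 and 0 to 0 for the other knockouts. It gave 5 to 9, 5 to 7, 2 to 5 and 7 to 12 for the steps of DIOLs.S, 5 to 6, 1 to 1 and 1 to 3 for those of DIOLs, and 0 to 1 for the comparison of both at day 5. MII DIOL had 15 to 17 calls against DIOLs of day 25 and 16 to 18 against comp GV oocytes, DIOLs of day 25 had 4 to 5 against incomp GV oocytes, and the kinds of GV oocyte 0 to 0. Replicate numbers did not pair the libraries: over 29 comparisons the correlation of same-numbered deviations was -0.192 to 0.032. The fit with the replicate block moved no count past 1.5 times and kept the call of all 117 named values it could be run for. GV oocytes were left out of that fit because the numbers on their columns were not matched to single libraries of the series. The filter changed none of the 131 named calls.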
